A study of Drosophila melanogaster with 2 samples.

Results

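Peaks of Pumilio (Pum) ChIP-seq that lay at the promoter of 1 gene only numbered 1018 of 3816 peaks in whole Drosophila melanogaster embryos. A peak was counted here when its summit lay within 500 bp of annotated transcript starts of exactly 1 gene of any kind and that gene was protein coding. Such peaks, called single-gene promoter peaks below, made up 26.7% of all peaks (95% Wilson interval 25.3 to 28.1) and 51.5% of the 1978 peaks at promoters (49.3 to 53.7). A further 868 summits lay near the starts of 2 or more genes, 806 of them of exactly 2, and are called shared-promoter peaks. The other promoter peaks were 92 at a single non-coding gene, and 1838 summits had no start within 500 bp. Wilson intervals reflect only the counting of peaks or genes.

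The data were 2 ChIP-seq libraries, biological replicates numbered 2 and 3, from 1 group of embryos of both sexes collected 0 to 24 h after laying. The flies carried a MiMIC insertion in pum whose intronic eGFP exon makes a Pum-eGFP fusion protein from the pum locus, and the fusion was immunoprecipitated with an antibody against GFP from chromatin sheared to 200 to 800 bp. No second genotype, treatment or stage was compared, and the control immunoprecipitation that the labels point to was not analysed here. With whole embryos, all tissues and 24 h of development were mixed, so a weak peak in many cells and a strong peak in few cannot be told apart. With 1 group of 2 libraries no test over samples was possible, so every difference below is a description and was not tested.

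Pumilio is the founding member of the PUF family, RNA-binding proteins that recognise a short element in the 3' untranslated regions of mRNAs and repress their translation, in flies together with Nanos and Brat. It is known as a maternal regulator of abdominal patterning in the embryo, as a regulator of germline stem cells and as a regulator of excitability in neurons, and its known work on mRNA is cytoplasmic. ChIP-seq reads DNA that is cross-linked, directly or through other molecules, to the tagged protein. Fly promoters are commonly divided into those of broadly active genes, many of which carry the DRE or Ohler motifs and sit head to head with a neighbour, and those of regulated genes, which more often carry a TATA box, an Initiator or GAGA elements.

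The windows that follow show what lay under these summits. Each is 201 bases centred on a summit, given 5' to 3' on the strand of its gene from the RefSeq genome of Release 6 (dm6). Ugalt, which encodes a Golgi transporter of UDP-galactose, and CG14100 had the highest signals of all single-gene promoter peaks. Their windows were chrX:2703785-2703985 on the minus strand, with its summit 33 bp upstream of the start, and chr3L:19590522-19590722 on the minus strand, with its summit 98 bp upstream. Capitals mark the letters of any spelled-out motif. The Ugalt window held 1 Initiator match, on the opposite strand, and the CG14100 window held none of the motifs.
Ugalt: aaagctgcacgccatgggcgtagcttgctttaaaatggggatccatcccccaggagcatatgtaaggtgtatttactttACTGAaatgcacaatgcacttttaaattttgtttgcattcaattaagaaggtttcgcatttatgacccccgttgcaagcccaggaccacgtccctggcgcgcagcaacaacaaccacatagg
CG14100: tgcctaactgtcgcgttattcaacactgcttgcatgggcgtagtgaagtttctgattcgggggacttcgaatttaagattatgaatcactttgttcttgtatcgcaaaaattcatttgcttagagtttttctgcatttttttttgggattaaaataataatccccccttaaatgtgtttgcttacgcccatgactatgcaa

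The DRE, TATCGATA, is bound by the factor Dref and is typical of genes for growth and replication. Of the members that held it, 2 strong ones were CG11151, at chrX:13739451-13739651 on the plus strand, and RpL26, a protein of the large ribosomal subunit, at chr3L:18898821-18899021 on the plus strand. Capitals mark the DRE.
CG11151: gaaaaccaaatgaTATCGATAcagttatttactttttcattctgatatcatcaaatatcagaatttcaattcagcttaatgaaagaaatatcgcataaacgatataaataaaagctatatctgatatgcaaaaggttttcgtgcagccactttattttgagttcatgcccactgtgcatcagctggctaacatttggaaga
RpL26: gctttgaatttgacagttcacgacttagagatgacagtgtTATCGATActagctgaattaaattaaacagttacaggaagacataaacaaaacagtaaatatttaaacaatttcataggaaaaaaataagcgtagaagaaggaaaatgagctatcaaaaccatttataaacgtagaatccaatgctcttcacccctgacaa
Ohler 1, GGTCACACT, is bound by the zinc finger protein M1BP. It is shown in capitals at deltaCOP, a subunit of the COPI vesicle coat, at chrX:1861783-1861983 on the minus strand, and at Mer, the fly Merlin of the Hippo pathway, at chrX:19693329-19693529 on the minus strand.
deltaCOP: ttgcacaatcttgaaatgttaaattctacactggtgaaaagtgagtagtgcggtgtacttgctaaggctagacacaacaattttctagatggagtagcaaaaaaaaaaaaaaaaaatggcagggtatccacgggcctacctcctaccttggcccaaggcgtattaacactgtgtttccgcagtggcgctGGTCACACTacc
Mer: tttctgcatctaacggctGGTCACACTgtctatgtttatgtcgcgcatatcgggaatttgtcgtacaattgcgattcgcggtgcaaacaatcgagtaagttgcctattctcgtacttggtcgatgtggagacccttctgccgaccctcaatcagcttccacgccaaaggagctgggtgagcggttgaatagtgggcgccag

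GAGAGA is the core of sites for the GAGA factor, a protein that opens promoter chromatin. It is shown in capitals, here as its reverse complement, at CG9743, at chr3R:30203304-30203504 on the minus strand.
CG9743: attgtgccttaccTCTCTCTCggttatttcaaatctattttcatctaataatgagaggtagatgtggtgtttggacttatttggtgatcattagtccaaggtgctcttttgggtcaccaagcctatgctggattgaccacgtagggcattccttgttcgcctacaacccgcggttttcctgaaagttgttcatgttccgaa
TGTANATA is the element that Pum itself reads in RNA, searched here in DNA on both strands. It or its reverse complement is shown in capitals at Atf3, a bZIP transcription factor, at chrX:1275397-1275597 on the minus strand, and at CBP, at chrX:7336958-7337158 on the plus strand.
Atf3: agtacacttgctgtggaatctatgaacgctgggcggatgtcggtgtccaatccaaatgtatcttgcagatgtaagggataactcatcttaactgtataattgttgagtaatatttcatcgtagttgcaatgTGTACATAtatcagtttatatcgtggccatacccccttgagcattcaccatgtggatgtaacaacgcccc
CBP: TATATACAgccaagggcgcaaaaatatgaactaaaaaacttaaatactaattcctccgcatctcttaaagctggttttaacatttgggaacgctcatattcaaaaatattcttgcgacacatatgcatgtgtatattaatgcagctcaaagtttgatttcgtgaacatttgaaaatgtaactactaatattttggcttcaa

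Single-gene promoter peaks lay mostly just upstream of the start. Of the 1018 summits, 871 were upstream of the nearest start, 145 were downstream and 2 were on it, so that 85.6% lay upstream (83.3 to 87.6). Among shared-promoter peaks 84.3% did (81.8 to 86.6). The median summit of the single-gene promoter peaks was 127 bp upstream of the start, with the middle 50% of summits between 242.75 and 44 bp upstream, and that of the shared-promoter peaks was 70 bp upstream. Summits more than 250 bp from the nearest start made up 28.9% of the single-gene promoter peaks (26.2 to 31.7) and 3.11% of the shared-promoter peaks (2.15 to 4.49). The classes were made by distance, since a shared summit must be within 500 bp of starts of at least 2 genes, and the part of this in the gap was not tested.

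**Figure D1:**
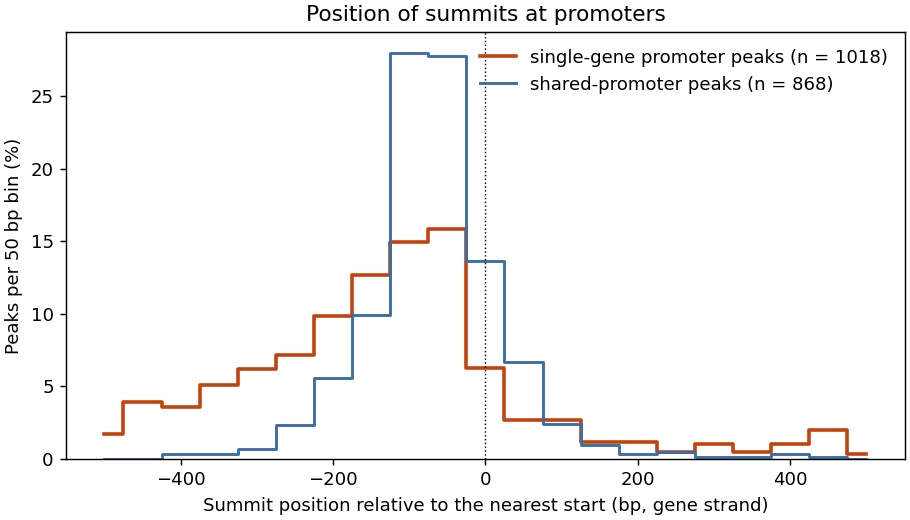
Position of each summit relative to the nearest transcript start, in bp along the gene's strand, as the percent of peaks per 50 bp bin, for the 1018 single-gene promoter peaks and the 868 shared-promoter peaks. Both groups lie mainly upstream, and the single-gene promoter peaks reach farther upstream, with a median of -127 bp against -70 bp.

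Peaks at a middle distance from the start were the strongest. The 374 single-gene promoter peaks more than 100 and up to 250 bp away had a median signal of 164, the 350 within 100 bp had 123, and the 294 beyond 250 bp had 135. The signal is the peak value the authors deposited, in their own unit, and can be compared within 1 list only. The same order held in each library, with medians of 98.0, 73.0 and 85.4 in replicate 2 and of 76.6, 56.2 and 63.1 in replicate 3. At more than 100 and up to 250 bp, 80.7% of peaks were among the strongest of both replicates (76.4 to 84.4), against 63.7% within 100 bp (58.6 to 68.6) and 69.4% beyond 250 bp (63.9 to 74.4). Signal itself enters this share, since it decides which peaks are among the strongest, so the share adds no separate evidence.

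By annotation, 508 of the 1018 summits (49.9%) lay outside genes and 290 (28.5%) lay in an intron of the gene whose promoter they marked. A further 144 (14.1%) lay in an exon of that gene, 49 (4.81%) in an intron of another gene and 27 (2.65%) in an exon of another gene. A start more than 500 bp inside the gene's first start was the nearest one for 298 members (29.3%, 26.6 to 32.1), and in genes that have such a start it was the nearest one for 298 of 474 members (62.9%, 58.4 to 67.1). Of the 290 summits in an intron of their own gene, 254 (87.6%) were nearest to such an internal start, and of the 144 in an exon of their own gene 44 (30.6%) were. The rule leaves out summits near a start of another gene, and its part in these shares was not tested. The share of internal starts among all starts of these genes is not given, so no preference can be read. The use of internal starts in the embryos was not measured here.

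Most of these peaks were matched in each library, which their choice from the list called on both libraries favours. Of the 1018 single-gene promoter peaks, 729 (71.6%, 68.8 to 74.3) were matched within 100 bp by one of the strongest peaks of both replicates, where each replicate list was cut to as many peaks as the optimal list holds. Over all 3816 peaks this share was 69.2%, among shared-promoter peaks it was 71.9% (68.8 to 74.8), and among peaks away from promoters it was 66.1% (63.9 to 68.2). The share for the single-gene promoter peaks was thus close to that of all peaks. Another 135 (13.3%) were among the strongest of replicate 2 only, 140 (13.8%) of replicate 3 only, and 14 (1.38%) of neither. Shared-promoter peaks were less even, with 17.9% found in replicate 2 only and 8.41% in replicate 3 only.

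Pooling both libraries gave 1 list, in which the median signal of the single-gene promoter peaks was 140.8, that of the shared-promoter peaks 148.7 and that of the peaks away from promoters 127.0. Replicate 2 gave medians of 83.3, 91.7 and 72.1, and replicate 3 gave 63.5, 62.1 and 58.8. The ratio of single-gene to shared-promoter medians was 0.947 after pooling, 0.909 for replicate 2 and 1.02 for replicate 3, where the pooled peaks were matched in each library. When each library supplied the peaks itself, it was 0.907 for replicate 2 alone and 0.962 for replicate 3 alone. Over peaks away from promoters the ratio was 1.11, 1.16 and 1.08, above 1 in both libraries. Signals of the pooled list ran from 80.4 to 2357 among single-gene promoter peaks, with 10% of them below 87.2 and 10% above 375.

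Across the 928 single-gene promoter peaks matched in both lists, signals of the replicates had a Spearman rho of 0.716 and a Pearson r of 0.761 on the log2 scale. These are descriptions across peaks of the same 2 libraries, and peaks are not replicates. The median ratio of replicate 3 to replicate 2 was 0.769, against 0.677 for shared-promoter peaks and 0.759 for peaks away from promoters. The 2 lists may differ in scale, so values of single genes in the 2 libraries are to be read against these medians. The widest gap in each direction was at Obp99b and Nadk1a. Obp99b, an odorant-binding protein gene, had a signal of 160 in replicate 2 and 20.4 in replicate 3, and Nadk1a, a NAD kinase gene, had 14.9 in replicate 2 and 80.0 in replicate 3. Drat was the strongest member with no match in 1 library, at 511 in the pooled list and 190 in replicate 3.

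**Figure D2:**
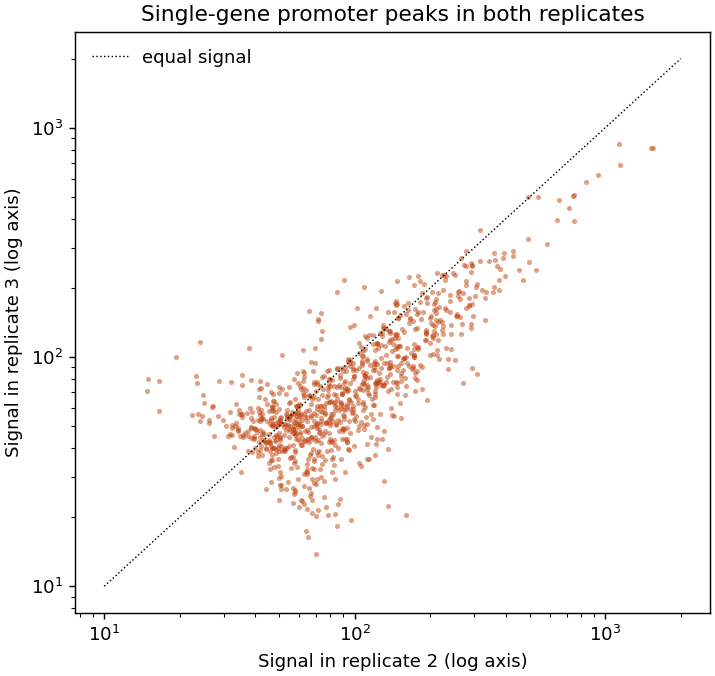
Signal of each of the 928 single-gene promoter peaks matched in both replicate lists, replicate 2 on the horizontal and replicate 3 on the vertical axis, both on log axes and in the authors' unit. Most points lie below the dotted line of equal signal, with a median ratio of replicate 3 to replicate 2 of 0.769, and the scatter is widest among weak peaks. The 2 lists may differ in scale.

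The 25 strongest members were found in every list. All 25 were among the strongest of both replicates, which their choice by the signal pooled over both libraries favours. Of the 25, 22 lay upstream of the start. The pooled signal of Ugalt was 2357, with 1547 for replicate 2 and 818 for replicate 3, and CG14100 had 2334, 1522 and 818. Among all peaks of replicate 2 they ranked 1 and 2, and among those of replicate 3 they ranked 3 and 4. Across the 25, signals ran from 317 to 1547 in replicate 2 with a median of 585, and from 216 to 852 in replicate 3 with a median of 397.

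Known roles of single genes among the 25 are given as background. The peak of ph-p, a subunit of the Polycomb repressive complex PRC1, had 1827, 1145 and 690 in the pooled list, replicate 2 and replicate 3, and its summit lay 478 bp upstream of an internal start, in an intron. Sox14, an HMG-box factor known for its role in neuron remodelling after ecdysone, had 1136, 751 and 391, and Atf3 had 889, 585 and 311. The zinc finger factor cbt had 667, 392 and 271 and lay in an intron of the neighbouring gene ush. These 4 were strong in both libraries. Each had the higher value in replicate 2, as did most members, with a median ratio of replicate 3 to replicate 2 of 0.769.

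The gene larp, which encodes a La-related RNA-binding protein, had a pooled signal of 1262, with 751 and 507 for replicates 2 and 3. PNPase, a mitochondrial exoribonuclease, had 1414, 840 and 577, with its summit 85 bp downstream of a start. Rtnl1, a reticulon that shapes the endoplasmic reticulum, had 1025, 639 and 397. GstE13, a glutathione S-transferase gene, had 1166, 717 and 448. The casein kinase 1 gene gish had 995, 493 and 498 and Fkbp14, a prolyl isomerase of the endoplasmic reticulum, had 669, 317 and 357, and these were the only members of the 25 with a higher signal in replicate 3. The wing-vein gene px had 1967, 1130 and 852 and the prohormone convertase gene amon had 692, 452 and 240. The remaining genes of the 25 were CG1888, CG13921, CG31145, CG18549, MFS10, CG13501, CG1607, CG11857, Hpf1, TRAM and CG10413, with pooled signals between 680 and 1563.

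**Figure D3:**
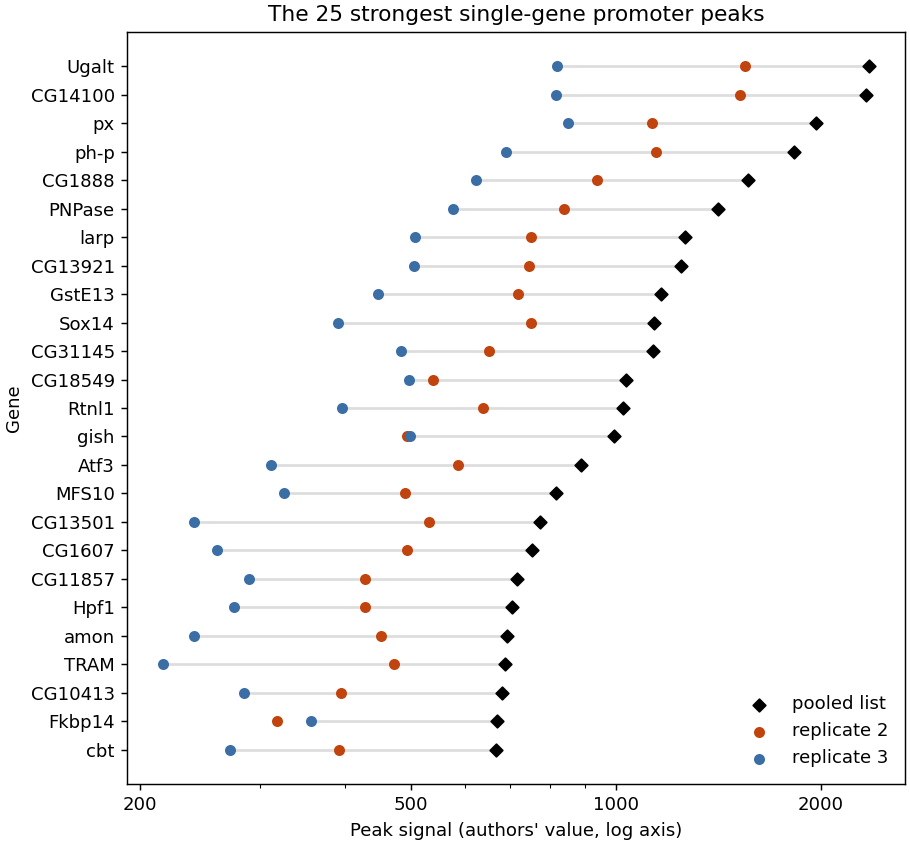
Signal of the 25 strongest single-gene promoter peaks, 1 gene per line with the strongest at the top, in the pooled list (black diamonds), replicate 2 and replicate 3, on a log axis in the authors' unit. Replicate 2 lies above replicate 3 for every gene but gish and Fkbp14. The 2 lists may differ in scale, so this order cannot be read as a trait of single genes.

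The 1018 peaks fell on 972 genes, which is 6.96% of all 13968 protein-coding genes and 9.51% of the 10102 genes that have a start with no other gene's start within 500 bp (961 of 10102). Of the 972 genes, 935 had 1 such peak, 32 had 2, 3 had 3 and 2 had 5. Rtnl1 had 5 peaks, all upstream of its different starts, with pooled signals of 1025, 394, 232, 122 and 94.6. Ptpmeg2, a protein tyrosine phosphatase gene, also had 5, with 595, 450, 322, 164 and 80.9, of which 4 lay upstream. In both genes the signals of the peaks therefore differed several-fold between starts.

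Among genes with 3 such peaks, dnc, which encodes a cAMP phosphodiesterase, had pooled signals of 603, 261 and 119, each summit 286 to 331 bp upstream of a start. Its replicate 2 signals were 343, 151 and 55.2 and its replicate 3 signals 261, 112 and 63.9, in the same order. CG14968 had 266, 166 and 111, and Moe, which links actin to the plasma membrane, had 157, 134 and 91.8. For Moe the order was not shared by the libraries, with 70.7, 84.4 and 34.6 in replicate 2 and 76.4, 51.2 and 59.0 in replicate 3.

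Genes with a single-gene promoter peak had a median of 2 annotated starts, against 1 both for genes at shared-promoter peaks and for genes without a promoter peak. Their median length was 5622.5 bp, against 2503.5 bp for the protein-coding genes at shared-promoter peaks and 2065.5 bp for the 8808 genes with a start of their own and no promoter peak. Genes of 20 kb or more made up 17.6%, 4.47% and 8.34% of these groups. Only 1 annotated start was present in 41.3% of the genes with a single-gene promoter peak, against 64.7% at shared-promoter peaks and 74.9% of those without a peak. A gene with many starts has more places where a summit can be counted, and its part in these gaps was not tested. A further peak lay inside 210 of the 972 genes (21.6%, 19.1 to 24.3), against 468 of the 8808 genes without a promoter peak (5.31%, 4.86 to 5.80). By choice, the latter had no summit near any of their starts, and they were shorter. The parts of this choice and of gene length in the gap were not tested.

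The next gene upstream pointed away from the promoter, on the opposite strand, for 472 of 1018 members (46.4%, 43.3 to 49.4) and for 3298 of 8404 single-gene promoters without a peak (39.2%, 38.2 to 40.3). The median distance to that neighbour's start was 2915.5 bp for members and 2960 bp for promoters without a peak. The neighbour was sought from the start nearest to the summit for members and from the canonical start for promoters without a peak. These starts were thus not chosen alike. For 196 members (19.3%) a start of another gene lay 501 to 1000 bp from the summit, just outside the window. On the X chromosome 191 of 1665 genes with a start of their own had a member (11.5%, 10.03 to 13.1), and on the arms 2L, 2R, 3L and 3R the share lay between 9.03% and 9.29%. The X held 20.3% of the single-gene promoter peaks (18.0 to 22.9) and 11.2% of the shared-promoter peaks (9.25 to 13.4).

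Motifs of broadly active promoters were less frequent under single-gene than under shared-promoter summits. The DRE, TATCGATA, lay within 100 bp of 66 of 1018 single-gene summits (6.48%, 5.13 to 8.17), of 98 of 868 shared-promoter summits (11.3%, 9.35 to 13.6) and of 387 of 8404 single-gene promoters without a peak (4.60%, 4.18 to 5.07). Ohler 7 was in 8.55% (6.98 to 10.4), 18.4% (16.0 to 21.1) and 3.64% (3.26 to 4.06) of these windows, and Ohler 1 in 2.85%, 4.72% and 1.95%. Ohler 6 was in 0.196%, 1.73% and 1.06%. All single-gene promoters together, with or without a peak, held the DRE in 4.89%, Ohler 1 in 2.14%, Ohler 7 in 4.10% and Ohler 6 in 1.09% of 9149 windows. Windows of promoters without a peak were centred 90 bp upstream of the canonical start and those of members on summits, so the windows were not placed alike. Shared summits also lay nearer to starts than single-gene ones. With a promoter window of 250 bp the DRE shares of these 2 groups were 9.53% for single-gene and 11.6% for shared-promoter peaks.

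The E-box CAGCTG was in 10.5% of the single-gene windows (8.77 to 12.5), 13.9% of the shared-promoter windows (11.8 to 16.4) and 10.6% of the promoters without a peak, against 10.8% of all single-gene promoters. TATAAA anywhere in the window was in 28.3% (25.6 to 31.1), 34.1% (31.0 to 37.3) and 36.0%, against 35.3% of all. GAGAGA was in 10.4% of the single-gene windows (8.68 to 12.4), in 4.26% of the shared-promoter windows (3.11 to 5.82) and in 10.6% of the promoters without a peak (10.01 to 11.3), against 11.1% of all single-gene promoters. The CTCF core, AGNNGGCGC, was in 3.93% (2.90 to 5.31), 2.65% (1.77 to 3.94) and 1.92% (1.64 to 2.23), against 2.15% of all. Of the 40 members that held it, 28 (70%) had it within 50 bp of the summit. This was the highest share of the 13 motifs, with Ohler 7 at 66.7%, Ohler 1 at 58.6% and the Initiator at 54.6%. Sites were sought within 100 bp of the summit, so sites spread evenly would often lie within 50 bp too. Whether any motif was centred on summits was not tested. The element that Pum reads in RNA was in 8.06% (6.537 to 9.89), 7.83% (6.23 to 9.81) and 7.54% (7.00 to 8.13), against 7.41% of all single-gene promoters, so its share at members was within the interval of the promoters without a peak. The median GC content was 37.3% in the single-gene windows, 35.8% in the shared-promoter windows and 39.3% in promoters without a peak.

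**Figure D4:**
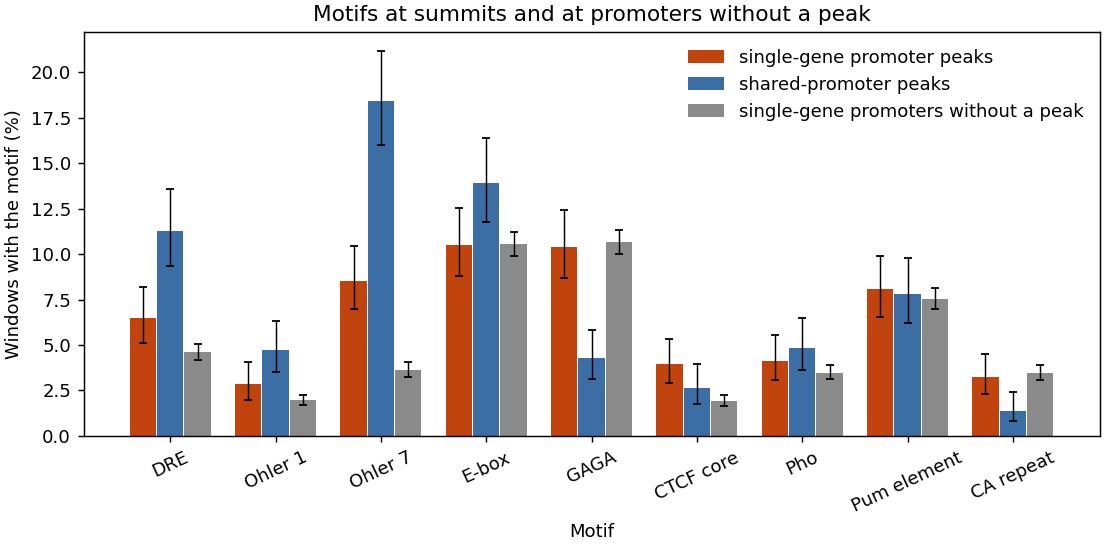
Percent of 201 bp windows that hold each of 9 motifs on either strand, for single-gene promoter peaks, shared-promoter peaks and single-gene promoters without a peak, with bars from 0 and 95% Wilson intervals as error bars. Single-gene promoter peaks lie between the other groups for the DRE and Ohler 7, and at the level of promoters without a peak for GAGA and the Pum element.

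At the starts themselves, on the sense strand, the TATA box TATAAA lay 15 to 45 bp upstream of 26 of the 1018 starts nearest to a member (2.55%, 1.75 to 3.72), of 2.30% of those nearest to a shared-promoter peak and of 969 of 8404 starts without a peak (11.5%, 10.9 to 12.2). Counting the canonical start of each of the 972 genes in place of the nearest start gave 2.37% (1.58 to 3.53). The Initiator TCAGT lay within 10 bp of 16.0% of the member starts (13.9 to 18.4), 5.18% of the shared-promoter starts (3.90 to 6.87) and 15.3% of the starts without a peak (14.5 to 16.1). Starts with a single-gene promoter peak thus had a share with a TATA box near that of shared-promoter starts, and a share with an Initiator near that of starts without a peak.

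Within the single-gene promoter peaks the strongest differed from the weakest in sequence and place. Of the 204 strongest, 5 held a DRE (2.45%, 1.05 to 5.61) and 1 held Ohler 1, while of the 204 weakest 18 held a DRE (8.82%, 5.65 to 13.5) and 12 held Ohler 1. None of the 25 strongest held a DRE, Ohler 1 or the CTCF core, while 13 held an Initiator anywhere in the window. Over all 1018 members the shares were 6.48%, 2.85%, 3.93% and 35.5%. With 25 windows, counts of the rarer motifs are too small to be read as a difference. The median summit was 186.5 bp upstream among the 204 strongest and 85.5 bp upstream among the 204 weakest, and 39.2% and 28.9% lay at an internal start. The share among the strongest of both replicates was 99.5% and 17.2% in these groups, a gap that signal itself enters, since it decides which peaks are among the strongest.

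Genes of 32 lists were counted among the 10102 genes with a start of their own, of which 9.51% had a single-gene promoter peak. Many genes of a list sit beside another start and drop out of this count, and some genes are in several lists. Ribosomal proteins stood at 20 of 50 (40%, 27.6 to 53.8), and 34 of the 92 ribosomal protein genes were at a shared-promoter peak, as were 1678 of all 13968 protein-coding genes (12.01%). Their peaks lay close to the start, between 97 bp upstream and 64 bp downstream with a median of 31.5 bp upstream, against 127 bp for all members. RpL23A of the large subunit had signals of 449, 222 and 228 in the pooled list, replicate 2 and replicate 3, and RpL11 had 232, 73.1 and 156. Their median pooled signal was 156, against 140.8 over all members, and 14 of the 20 were among the strongest of both replicates. With a promoter window of 250 bp 32 of these genes had such a peak, and with 1000 bp 8 had.

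Protein kinases stood at 18 of 49 (36.7%, 24.7 to 50.7), with a median pooled signal of 160 and a median summit 167.5 bp upstream. After gish, the strongest was the cGMP-dependent kinase gene for, with a pooled signal of 547 and replicate signals of 294 and 252. The GSK-3 homolog sgg had 442, 277 and 164, and the casein kinase 1 gene dco had 344, 269 and 76.8. When only canonical starts were used, 9 kinase genes had such a peak. The clock list, at 5 of 14 (35.7%, 16.3 to 61.2), held sgg and dco again, with the casein kinase 2 subunit CkIIbeta at 150, 84.6 and 74.0, the repressor vri at 149, 74.2 and 81.5, and the activator Pdp1 at 80.4 in the pooled list and 44.1 in replicate 3, with no match in replicate 2.

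Cell cycle genes stood at 10 of 34 (29.4%, 16.8 to 46.2). The E2F partner Dp had 427, 291 and 140 in the pooled list, replicate 2 and replicate 3, the spindle checkpoint kinase BubR1 had 216, 152 and 62.9, and the mitotic kinase polo had 158, 98.7 and 59.1. Only 5 of the 10 genes were among the strongest of both replicates, and the list median of 102 was below the 140.8 of all members. Genes of the cytoskeleton and adhesion stood at 11 of 49 (22.4%, 13.0 to 35.9), with a median of 99.4 and 3 among the strongest of both replicates. Vinc, the fly vinculin, led them with 302, 174 and 132.

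Genes that work with Pum or on mRNA stood at 9 of 41 (21.95%, 12.003 to 36.7). After larp came bgcn, a partner of Bam in the germline, with 236, 114 and 124 in the pooled list, replicate 2 and replicate 3, the poly(A)-binding protein gene pAbp with 170, 118 and 61.6, and Fmr1, the fly homolog of the fragile X protein, with 168, 108 and 62.5. Of 8 genes whose mRNAs are known Pum targets, 3 had a single-gene promoter peak (37.5%, 13.7 to 69.4). Over all genes with a start of their own the share was 9.51%. The count of these targets was 1 when replicate 2 was left out and 4 when replicate 3 was. The name Dl of this list, and nos, Dcp1 and Dcp2 of the list before, found no gene and were not counted. The anterior determinant bcd had 277, 186 and 90.6, the scaffold gene dlg1 had 179 in the pooled list and 129 in replicate 2 with no match in replicate 3, and CycB, a mitotic cyclin, had 81.7, 44.4 and 26.5. Only bcd was among the strongest of both replicates.

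Signalling lists lay between 10.7% and 23.5%, with intervals that reached below the 9.51% of all genes with 1 exception. Hippo and planar polarity genes were that exception at 4 of 17 (23.5%, 9.56 to 47.3), and held kibra at 247, 133 and 102, the kinase hpo at 226, 136 and 89.8, and Mer at 226, 138 and 84.6. In the Notch list, 5 of 25, the corepressor gro had 511, 331 and 180 and the endocytic inhibitor numb had 322, 184 and 146, while the receptor gene N, at 92.8 in the pooled list, had no match in either replicate. The Wnt and Hedgehog list stood at 3 of 28, with 5 genes when replicate 2 was left out. The EGFR list, 5 of 27, was led by the ligand spi with 520, 307 and 209. In the insulin list, 4 of 19, the PI3-kinase subunit Pi3K21B had 393, 308 and 84.1 and the receptor InR had 213, 142 and 77.7. In the Dpp list, 2 of 18, magu had 553, 355 and 192.

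Among regulators of chromatin, Polycomb and trithorax genes stood at 5 of 23 (21.7%, 9.66 to 41.9) and insulator and promoter factors at 4 of 15 (26.7%, 10.9 to 52.0). The gene Trl, which encodes the GAGA factor and is in both lists, had 329, 235 and 98.2. All 4 insulator and promoter factor summits lay downstream of the start, at 7 to 195 bp. Ecdysone and nuclear receptor genes stood at 4 of 26, with the transporter gene E23 at 364, 211 and 156 and Eip75B at 318, 177 and 153. Of the segmentation and Hox genes 3 of 36 had a peak (8.33%, 2.87 to 21.8), near the share of all genes.

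Some lists had few or no such peaks. Cuticle protein genes had 0 of 114, with an upper Wilson bound of 3.26%, odorant and gustatory receptor genes 0 of 103 (upper bound 3.60%) and cytochrome P450 genes 1 of 78 (1.28%, 0.227 to 6.91). Of the neuron markers 0 of 14 had one, with an upper bound of 21.5% that includes the share of all genes. Of the glia markers 2 of 11 had one, led by the receptor gene moody with 618, 397 and 225. Muscle markers stood at 3 of 16, heat shock and chaperone genes at 3 of 24, led by Hsp27 with 410, 263 and 150, and glutathione S-transferase genes at 4 of 31. Without replicate 2, 4 glia markers had one. Without replicate 3, 2 of the glutathione S-transferase and 2 of the cytochrome P450 genes had one.

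**Figure D5:**
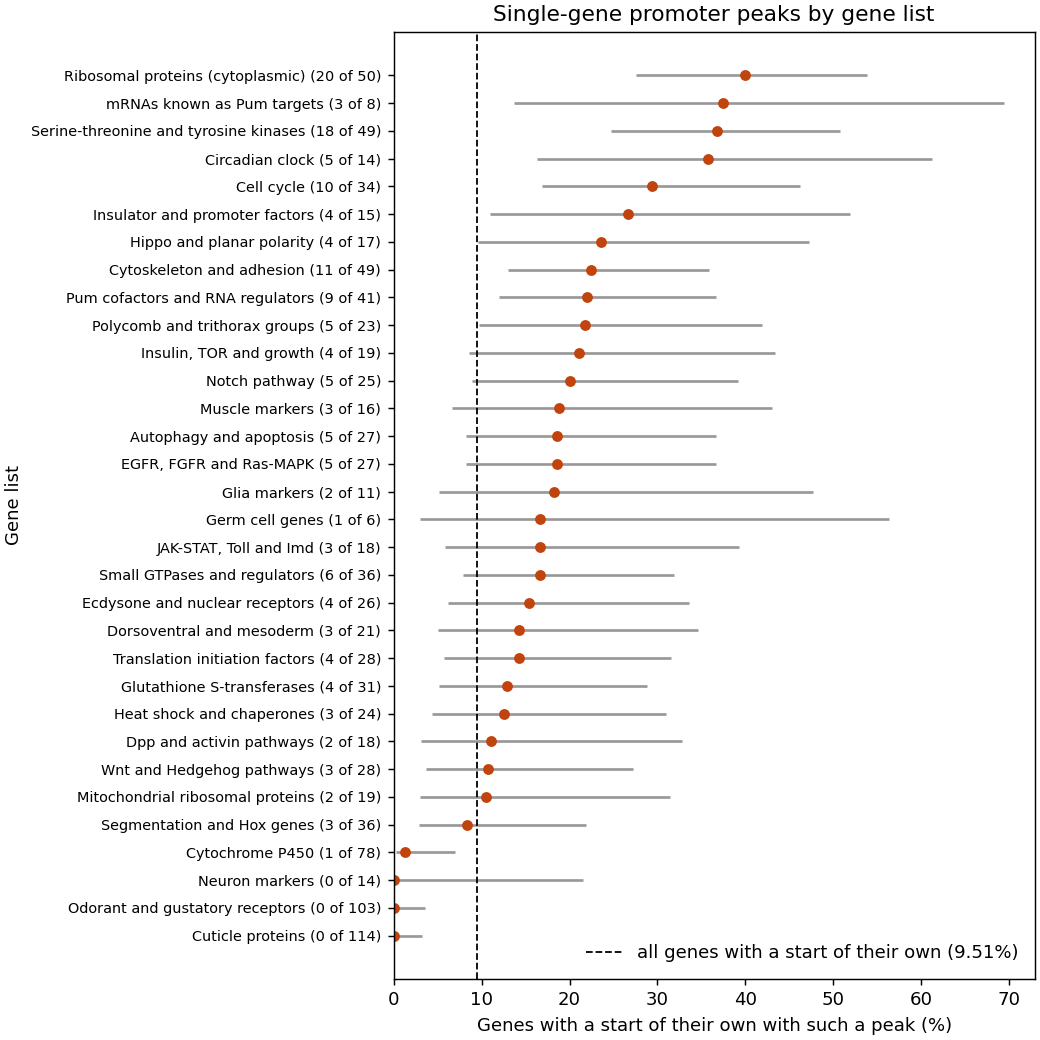
Percent of the genes of each list with a start of their own that had a single-gene promoter peak, with counts beside each list name and 95% Wilson intervals as lines. The dashed line marks the 9.51% of all such genes, with ribosomal proteins and kinases to its right and cuticle proteins and chemoreceptors at 0.

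At the edge of the 500 bp window, the last peaks inside were CG3638, 500 bp from its start with a pooled signal of 238, and CG10383, 499 bp away with 97.4. The nearest outside were Gs2, 503 bp from its start with 188, and CG42336, 504 bp away with 97.4. So few peaks cannot show whether signals change at the edge.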

How the data were processed

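ChIP-seq peaks were measured in 2 libraries of Pum-eGFP embryos, replicates 2 and 3 of 1 group. Peak lists on dm6 were deposited by the authors, 1 of 30000 rows per replicate, 1 of 26275 rows called on both libraries and an optimal list whose 3970 rows equal as many top rows of the list called on both. The signal of each peak is the value deposited by the authors. The −log10 of the q-value was also deposited by the authors, and 97.5% of optimal peaks shared its highest value, so it was not used to rank. The sources used here do not name the peak caller, and read depth is unknown.

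A summit up to 250 bp from one with more signal was dropped, leaving 3816 peaks. Starts came from Ensembl release 115 (BDGP6.54), with transposable elements set apart, and sequence from the RefSeq genome of Release 6, the same assembly as dm6. A peak was matched to a replicate peak by summits within 100 bp. No summit of a single-gene promoter peak was equally near 2 starts. Motifs were sought on both strands within 100 bp of summits: besides those spelled out in the results, the E-box CAGCTG, the Zelda site CAGGTAG, the Pho site GCCATNTT, the repeat CACACACA, and Ohler 6 and Ohler 7 by name. Shares carry 95% Wilson intervals.

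Named genes were the 25 strongest members, up to 4 of each list, up to 5 with several peaks, those at the edge of the window and those whose windows are shown. The window of 1 member is not reported here. Genes named for replicate differences or for 8-letter words, and Pdp1 and N, were chosen after their values were seen. The members, the 32 gene lists and the 13 motifs were chosen with earlier results of these data known, and 16 list names found no gene. In all, 12 alternatives were planned and 3 were added after seeing the data. The code was tested on simulated data. Scripts ran in Python 3.11.15, with pandas 2.3.3, numpy 2.4.6, matplotlib 3.10.9 and scipy 1.17.1.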

Additional observations from a re-analysis of the deposited data

How the results depend on the processing

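Of the values recomputed for the main results, 51 stayed near the value reported and 18 moved further, where near meant within 1.5 times for the number of peaks, within 1 SD of the replicates for the ratio and within its Wilson interval for a share. Keeping the stronger 50% of peaks left 537 single-gene promoter peaks, with 94.4% among the strongest of both replicates, a ratio of medians to shared-promoter peaks of 1.08 and a DRE share of 4.10%. With a promoter window of 250 bp the ratio was 0.870, the DRE share 9.53% and the share with a divergent neighbour 57.9%. With 1000 bp, 77.0% lay upstream and the DRE share was 4.43%. With canonical starts only the DRE share was 8.18%. Among shared-promoter peaks the DRE share was 10.4% with the stronger 50%, 11.6% with 250 bp, 10.5% with 1000 bp and 11.8% with canonical starts. With 250 bp the 2 groups were thus closer in DRE share than in the main setting. Motif windows of 50 and 200 bp gave DRE shares of 2.85% and 8.84%, against 6.91% and 19.2% at shared-promoter peaks. Matching replicates within 50 bp gave 61.2% among the strongest of both and within 250 bp 75.9%. Keeping only peaks of both replicates, an alternative chosen after seeing the data, gave a ratio of 0.992. The cause of these shifts was not tested.

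Leaving out each replicate gave 79.9% to 86.6% upstream, a ratio of 0.907 to 0.962 and 66.5% to 71.5% among the strongest of both. Of the settings tried, the ratio was above 1 only with the stronger 50% of peaks. No paired analysis was possible because both libraries belonged to 1 group. Depth could not be weighed, since the lists give no read counts, and the number of libraries limits all results to these 2.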

Other observations

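A count of every 8-letter word, both strands together, was added after seeing the data and describes sequence that the motif list did not cover. Among 807 words found in at least 25 single-gene promoter windows, the word with the highest share at members relative to single-gene promoters without a peak was CACAGTGG, in 55 of 1018 member windows (5.40%) and 58 of 8404 promoters without a peak (0.690%). The next was CACTGTGC, in 5.21% and 0.773%. Either word lay in 68 member windows (6.68%, 5.30 to 8.38), in 2.65% of shared-promoter windows (1.77 to 3.94), in 7.07% of windows away from promoters (5.99 to 8.34) and in 1.07% of promoters without a peak (0.872 to 1.31). The reverse complement of CACAGTGG is CCACTGTG, which overlaps CACTGTGC in the letters CACTGTG. The words are thus pieces of 1 longer stretch where both occur, as in 40 of the 68, and that count shows no pairing of separate sites. The words were picked for this ratio, so their shares at members and at promoters without a peak support nothing, and no test was made.

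Unlike the DRE, the words were more frequent among strong members, which was not tested. CACAGTGG was in 18 of the 204 strongest (8.82%, 5.65 to 13.5) and in 37 of the other 814 (4.55%, 3.32 to 6.20), with intervals that overlap. CACTGTGC was in 9.31% (6.04 to 14.1) and 4.18% (3.00 to 5.78). Members with either word had a median pooled signal of 163, with 96.7 in replicate 2 and 74.9 in replicate 3, and the other members had 139, 82.5 and 63.1. The words lay at a median distance of 65 bp from the summit, with 25 of 68 (36.8%) within 50 bp, against a median of 52 bp for the DRE and 57 bp for GAGAGA, and 1 of the 68 windows also held a DRE. Genes with either word included Rtnl1, spi, Ptpmeg2 and RpL23A. The strongest windows with CACAGTGG among those that may be shown are given on the strand of the gene from the RefSeq genome of Release 6 (dm6), with the word or its reverse complement in capitals: Rtnl1 at chr2L:4997544-4997744 on the minus strand, with signals of 1025, 639 and 397 in the pooled list, replicate 2 and replicate 3, and CG31431 at chr3R:21870436-21870636 on the plus strand, with 538, 265 and 271.
Rtnl1: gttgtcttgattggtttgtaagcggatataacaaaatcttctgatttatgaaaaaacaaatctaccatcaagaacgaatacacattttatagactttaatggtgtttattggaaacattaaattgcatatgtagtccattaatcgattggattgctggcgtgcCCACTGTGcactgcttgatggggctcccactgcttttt
CG31431: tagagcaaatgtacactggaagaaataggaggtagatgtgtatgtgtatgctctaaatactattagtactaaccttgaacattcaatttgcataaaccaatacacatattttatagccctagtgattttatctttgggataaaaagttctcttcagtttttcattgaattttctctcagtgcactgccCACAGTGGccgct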
